A study of Mus musculus with 9 samples.

Results

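The data described here are the 3 arrays of untreated bone marrow-derived macrophages in a series of 9 Affymetrix mouse genome arrays. They were chosen by their labels and no measured value entered the choice. The macrophages came from the bone marrow of BALB/c mice aged 8 to 10 weeks, were grown for 7 days with 10% serum and macrophage colony-stimulating factor (M-CSF), and were then kept overnight in 1% serum with M-CSF. The labels give 20 µg/ml M-CSF for both steps, whereas the methods of the study give the growth medium in ng rather than µg per ml, so that concentration is uncertain. The other 6 arrays received tenascin C, after vehicle in 3 and after the TLR4 inhibitor TAK-242 in 3. The labels name none of these additions for the 3 untreated samples, and they do not say whether the 3 biological replicates came from separate mice.

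Macrophages of this kind are grown from marrow progenitors by M-CSF, which signals through the receptor tyrosine kinase Csf1r. The transcription factor PU.1, encoded by Spi1, directs the lineage together with C/EBP, IRF and MAF factors. The cells are professional phagocytes that engulf particles, digest them in acidic lysosomes, present peptides on MHC molecules and sense microbes and damaged matrix through Toll-like receptors. TLR4 recognises bacterial lipopolysaccharide (LPS) with its partners Cd14 and Ly96 and also responds to the matrix glycoprotein tenascin C, the response that the study addressed in these cells.

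Each value is a log2 signal after robust multiarray averaging (RMA), so a difference of 1 is a doubling of brightness. A gene was read from its brightest probe set, and values with ± are the mean and SD of the 3 arrays. The 18193 genes spread from a floor near 6 to 14.69, with a median of 7.24. A background threshold was set at 6.97, the 95th percentile of 183 genes that macrophages are not known to use, such as those of olfactory and vomeronasal receptors, crystallins and milk proteins. On this threshold 9988 genes (54.9%) were above background and 8205 were not. Brightness depends on the probes as well as on the transcript, so the order of genes below is an order on this array and not of RNA amount. Because RMA gave the arrays nearly the same distribution, with no rank differing by more than 0.045 between any of the 9, the brightest probe sets have almost no room to vary.

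**Figure D1:**
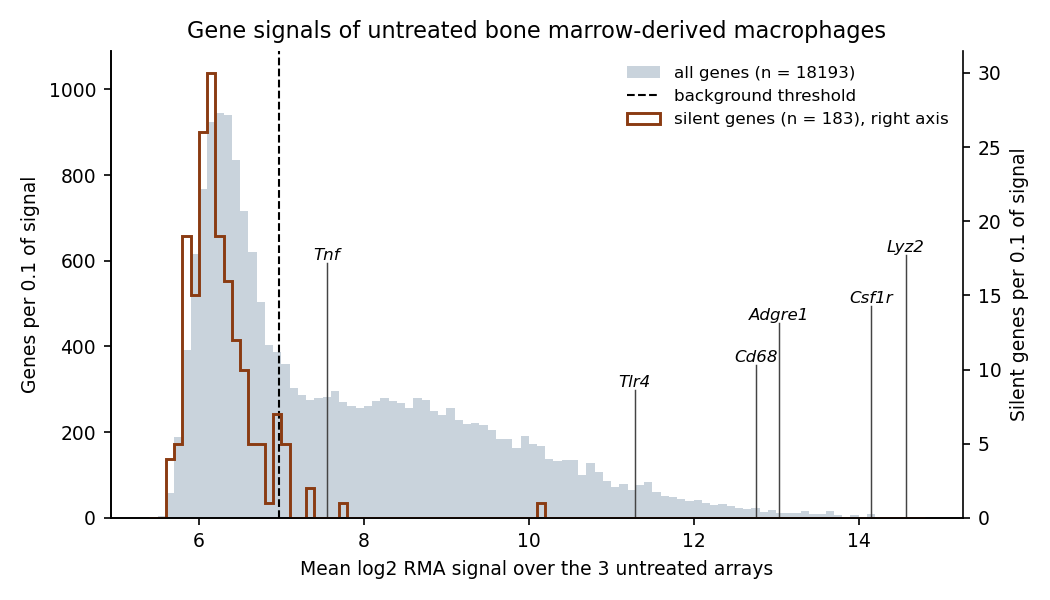
Histogram of the mean log2 RMA signal of 18193 genes over the 3 untreated arrays (grey, left axis) and of 183 silent genes (brown outline, right axis), with the background threshold as a dashed line. The silent genes pile up near 6.18, 10 of them lie above the threshold of 6.97, and the named macrophage genes Cd68, Adgre1, Csf1r and Lyz2 lie between 12.75 and 14.57.

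The 4 genes taken as markers of the lineage were among the brightest on the arrays. Lyz2, the lysozyme of myeloid cells, ranked 2nd of 18193 genes with 14.57 in every array. Csf1r read 14.17, 14.14 and 14.16 and ranked 11th, and its other probe sets read 13.74 and 12.95. Adgre1, which encodes the F4/80 antigen, read 13.03 ± 0.04 and ranked 109th. Cd68, a lysosomal glycoprotein, read 12.71, 12.78 and 12.76 and ranked 156th. All 4 were above 12.7 in each of the 3 arrays.

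Of 26 genes listed as marking macrophage identity, 24 were above background, beside 54.9% of all genes, and the median signal of the list was 11.87. The list was chosen with earlier results of these data known. The bright members included Tyrobp, the signalling adaptor of Trem2 and other receptors (13.71 ± 0.02), and the pore-forming protein Mpeg1 (13.39 ± 0.05). Laptm5 read 13.23 ± 0.02, or 7.20 without its probe set of the _s_at kind, which matches transcripts of several genes. Trem2 itself read 12.49 ± 0.04, also on a set of the _s_at kind, while its other set, at 6.62, was not above background. The pan-leukocyte phosphatase Ptprc read 12.38 ± 0.01, the mannose receptor Mrc1 12.07 ± 0.11, the integrin Itgam 11.59 ± 0.17 and the high-affinity Fc receptor Fcgr1 11.67 ± 0.07. Dimmer members were the apoptotic cell receptor Mertk (8.84 ± 0.08), the sialic acid receptor Siglec1 (7.59 ± 0.12) and the haemoglobin scavenger receptor Cd163 (7.31 ± 0.14). Marco (6.60 ± 0.11) and Timd4 (6.57 ± 0.07), receptors of resident macrophages of several tissues, were not above background.

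Promoters of the identity genes were searched for GAGGAAG, a common form of the PU.1 binding motif, on both strands. The windows were those of RefSeq on GRCm38.p6, from 250 bases before to 50 after each start. The motif was in 8 of the 20 windows found for identity genes, in 15 of 102 windows of the 100 brightest genes and in 4477 of 32851 windows in all (13.6%). Stretches of 80 bases that hold a match and lie before the start, not always next to it, are shown for Marco and 4 other identity genes. These were chosen because a match was present both in bright genes and in Marco, which was not above background. The motif, or CTTCCTC where it lies on the other strand, is in capitals, and each stretch is written in the direction of its gene.
Itgam, plus strand of chr7:128062521-128062600: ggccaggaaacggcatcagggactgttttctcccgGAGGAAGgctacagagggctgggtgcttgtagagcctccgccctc
Fcgr1, minus strand of chr3:96293981-96294060: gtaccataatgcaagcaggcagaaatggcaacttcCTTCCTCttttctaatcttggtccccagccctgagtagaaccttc
Trem2, plus strand of chr17:48346321-48346400: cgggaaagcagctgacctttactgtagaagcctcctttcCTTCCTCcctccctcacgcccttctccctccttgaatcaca
Laptm5, plus strand of chr4:130913236-130913315: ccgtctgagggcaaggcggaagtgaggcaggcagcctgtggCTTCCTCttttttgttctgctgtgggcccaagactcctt
Marco, minus strand of chr1:120505126-120505205: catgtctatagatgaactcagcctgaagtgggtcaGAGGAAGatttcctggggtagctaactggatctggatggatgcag
The match began 84 bases before the start in Itgam, 56 in Fcgr1, 41 in Trem2, 39 in Laptm5 and 146 in Marco. A match describes these letters and says nothing about binding in these cells.

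The 100 brightest genes had means from 13.12 to 14.69 and a median SD of 0.03. By symbol, 34 of them were proteins of the cytosolic ribosome, among them Rps29 (14.11 ± 0.04), Rpl37a (14.10 ± 0.01) and Rpl41 (13.93 ± 0.02). Lysosomal genes came next with 11 of the 100, and the actin cytoskeleton and macrophage identity lists held 7 each. The lipid carrier Apoe read 14.44 in every array and ranked 4th, and the ferritin heavy chain Fth1, which stores iron, read 14.53, 14.53 and 14.48 and ranked 3rd. The galectin Lgals3 (14.14 ± 0.03), the selenium carrier Selenop (14.12 ± 0.03), the long non-coding RNA Malat1 (13.81 ± 0.06), the membrane glycoprotein Gpnmb (13.58 ± 0.10) and the calcium-binding protein S100a4 (13.57 ± 0.02) were other members. Among the 10 brightest genes and the 11th, neighbours in rank did not overlap between arrays down to Itm2b, whereas Itm2b and Ctsb, Ctsb and Eef1a1, and Eef1a1 and Csf1r did.

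Lyz1, the lysozyme of Paneth cells, ranked 1st with 14.69 in every array, but this place rested on its probe sets. Its brightest and next probe sets, at 14.69 and 14.22, carry the suffix _x_at, given to sets in which some probes also match other sequences, and Lyz1 and Lyz2 are near-identical genes. The remaining Lyz1 probe set read 6.71 ± 0.13, which is not above background, so signals of Lyz1 and Lyz2 cannot be separated here. The suffix _x_at marked 19 of the 100 brightest genes and 3.57% of all genes, and the suffix _s_at, for sets that match transcripts of several genes, marked 8 and 5.05%. Without these sets 79 of the 100 stayed among the brightest 100, and 7, among them Rps29, had no probe set left and could not be read. Lyz1, Rps20 (6.46) and Tmsb10 (6.38) were no longer above background, and Rpl41 read 7.23.

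All 30 measured lysosomal genes were above background, beside 54.9% of all genes, with a median of 12.76. The cathepsins, which cleave ingested protein, were the brightest, with Ctsb at 14.19 ± 0.03, Ctss at 14.14 ± 0.03, Ctsl at 13.90 ± 0.03, Ctsd at 13.76 ± 0.03 and Ctsz at 13.67 ± 0.02. Psap, the precursor of the saposins that help to degrade sphingolipids, read 13.98 ± 0.02, and the membrane proteins Lamp1 and Lamp2 read 13.28 ± 0.01 and 12.93 ± 0.02. The dimmest were Ctsk (8.61 ± 0.12) and Acp5 (8.31 ± 0.04), which are abundant in osteoclasts. All 16 measured subunits and partners of the vacuolar proton pump, which acidifies the lysosome, were above background between 9.29 for Atp6v0a1 and 12.71 for Atp6ap2.

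All 24 genes of lipid handling were above background, beside 54.9% of all genes. The phospholipid transfer protein Pltp (13.62 ± 0.05), the fatty acid carrier Fabp5 (13.71 ± 0.09) and lipoprotein lipase Lpl (13.02 ± 0.03) followed Apoe, and the cholesterol exporters Abca1 and Abcg1 read 12.05 ± 0.10 and 12.18 ± 0.09. Of 17 iron and heme genes 14 were above background, beside the same 54.9%. The transferrin receptor Tfrc read 13.10 ± 0.04 and Hmox1, which degrades heme, 10.13 ± 0.06. The iron hormone Hamp (6.38 ± 0.15) was not above background. The NADPH oxidase that makes superoxide was represented by Cybb (13.21 ± 0.01), Cyba (13.10 ± 0.01), Ncf1 (12.38 ± 0.01) and Ncf4 (11.84 ± 0.04). These belonged to a list of 20 oxidative genes of which 17 were above background, beside 54.9% of all genes. All 19 respiratory chain genes, 20 glycolytic genes, 25 actin cytoskeleton genes, 11 reference genes and 23 genes of ribosomal proteins and translation were above background, at medians of 11.96, 9.23, 12.40, 12.31 and 13.49.

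Of 39 cell cycle genes 37 were above background, beside 54.9% of all genes, with a median of 8.56. The proliferation antigen Mki67 read 8.86, 8.93 and 9.21, the replication clamp Pcna 11.75 ± 0.06 and the replicative helicase subunit Mcm7 9.58 ± 0.05. Cdkn1a and Cdkn1b, inhibitors of the cycle, read 10.93 ± 0.04 and 10.06 ± 0.03. Ccne2 (6.70 ± 0.12) and Tyms (6.11 ± 0.14) were not above background.

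Of 34 transcription factors listed for the lineage, 32 were above background, beside 54.9% of all genes. Maf was the brightest and read 12.85, 12.90 and 12.86, with 5 dimmer probe sets between 7.94 and 11.41. Spi1 read 11.73, 11.70 and 11.72. The C/EBP factors Cebpb (11.83 ± 0.04), Cebpd (11.50 ± 0.07) and Cebpa (9.95 ± 0.05), the lysosomal and melanocyte factor Mitf (10.84 ± 0.04) and the interferon regulatory factor Irf8 (10.60 ± 0.08) were also above background. Pparg, the nuclear receptor needed by alveolar macrophages, read 8.42 ± 0.12. Myb, which is active in progenitors (6.13 ± 0.08), and Gfi1, which favours granulocytes (5.86 ± 0.06), were at the floor.

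In the M-CSF axis 12 of 17 genes were above background, beside 54.9% of all genes. Besides Csf1r, the phosphatases Ptpn6 (11.65 ± 0.09) and Inpp5d (10.68 ± 0.02), the adaptor Grb2 (10.76 ± 0.05) and the ubiquitin ligase Cbl (10.50 ± 0.04), which act on receptor signals, were present. The ligand gene Csf1 read 10.38, 10.33 and 10.34 in cells that were also supplied with M-CSF, and the other Csf1r ligand Il34 (6.67 ± 0.10) was not above background. The shared chain of the GM-CSF receptor, Csf2rb, read 10.90 ± 0.05 and the G-CSF receptor Csf3r 9.39 ± 0.01. The cytokines Csf2 (6.24 ± 0.15) and Csf3 (6.34 ± 0.12) and the progenitor receptors Flt3 (6.63 ± 0.11) and Kit (6.18 ± 0.13) were at the floor.

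**Figure D2:**
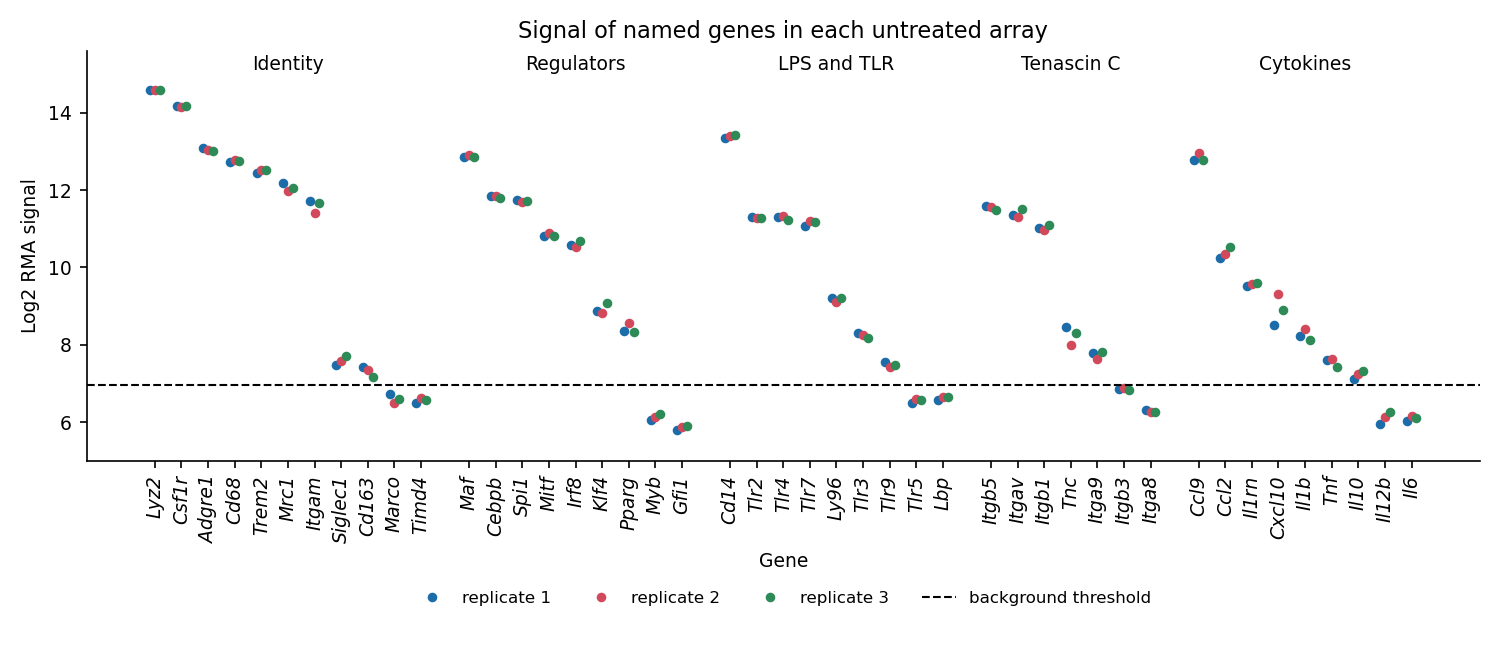
Log2 RMA signal of 45 named genes in each of the 3 untreated arrays (points, coloured by replicate), with the background threshold of 6.97 as a dashed line. Lyz2 to Itgam lie well above the line, Marco, Timd4, Myb, Gfi1, Tlr5, Lbp, Itgb3, Itga8, Il12b and Il6 lie under it, and Cxcl10 differs most between arrays, from 8.51 to 9.32.

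Of 25 Toll-like receptor genes and TLR4 partners, 22 were above background, beside 54.9% of all genes. Cd14, which hands LPS to the receptor complex, read 13.35, 13.40 and 13.43. Tlr4 read 11.31, 11.34 and 11.22, and 2 further Tlr4 probe sets read 10.06 and 9.28 while the remaining set, at 6.12, was not above background. Ly96, the MD-2 protein that binds LPS inside the complex, read 9.20, 9.11 and 9.20. The lipoprotein receptor Tlr2 read 11.31, 11.28 and 11.28. The receptors of endosomes read 11.14 ± 0.06 for Tlr7, 10.71 ± 0.05 for Tlr13, 9.90 ± 0.05 for Tlr8, 8.24 ± 0.07 for Tlr3 and 7.48 ± 0.07 for Tlr9. The adaptors Myd88 (10.76 ± 0.06), Tirap (9.25 ± 0.07) and Ticam1 (7.90 ± 0.06) were above background. Tlr5, the flagellin receptor (6.55 ± 0.06), Tlr12 (6.74 ± 0.08) and the serum protein Lbp (6.62 ± 0.04) were not.

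Of 16 genes for tenascin C and its known receptors, 9 were above background, a share close to the 54.9% of all genes. The integrin chains Itgav (11.37, 11.31 and 11.50), Itgb5 (11.54 ± 0.05) and Itgb1 (11.03 ± 0.06) were bright. Itgav was read from the brightest of 5 probe sets, the next of which read 7.89 and the dimmest 6.17. The chain Itga9 read 7.74 ± 0.11, and Itgb3 (6.86 ± 0.04), Itga8 (6.28 ± 0.02) and Itgb6 (6.01 ± 0.05) were not above background. Tnc itself read 8.47, 7.98 and 8.29 on its brightest probe set and 5.94 ± 0.12 on the other, so the probe sets of the gene lay on both sides of the threshold. Of the 4 niche genes that the study followed in endothelial cells, Tnfrsf11b (7.36 ± 0.10) and Inhbb (7.05 ± 0.16) were above background and Scgb3a1 (6.64 ± 0.05) and Lama1 (6.04 ± 0.13) were not. This share, 2 of 4, is close to the 54.9% of all genes. The count was 1 of the 4 without replicate 3, where Inhbb was not above background. It was 1 with the threshold from the hand-written silent genes, 1 where every array had to pass, and 0 at the 99th percentile of the silent genes. At the 90th percentile it was 2, and with a threshold from receptor and keratin-associated families alone it was 3.

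Fc receptors for IgG were bright. Of 11 Fc receptor genes measured, 7 were above background, a share near the 54.9% of all genes. They were led by the signalling chain Fcer1g (13.25 ± 0.02) and the low-affinity IgG receptor Fcgr3 (13.25 ± 0.05), with the inhibitory Fcgr2b at 11.51 ± 0.13. The IgE and IgM receptors Fcer2a (6.22 ± 0.11), Fcer1a (5.84 ± 0.10) and Fcmr (6.01 ± 0.14) were not above background. Of 20 lectin and Siglec receptors 14 were above background, beside 54.9% of all genes, among them Clec4d (13.07 ± 0.03) and the beta-glucan receptor Clec7a (12.16 ± 0.11). Of 21 receptors for modified lipoproteins and apoptotic cells 14 were, beside the same 54.9%, among them Cd36 (11.56 ± 0.03) and Axl (10.19 ± 0.06). Of 19 integrins and adhesion molecules 17 were above background, with the leukocyte chain Itgb2 at 12.33 ± 0.03.

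Of 21 receptors for chemokines and other attractants 11 were above background, a share close to the 54.9% of all genes. The complement C3a receptor C3ar1 was the brightest (12.76 ± 0.02), followed by Cxcr4 (11.73 ± 0.05) and Ccr2 (10.82, 10.79 and 10.73), the receptor of inflammatory monocytes. The fractalkine receptor Cx3cr1 read 9.85, 9.50 and 9.82. Ccr7 (6.28 ± 0.04), which guides dendritic cells, and Cxcr2 (6.27 ± 0.09), which guides neutrophils, were at the floor. Of 33 receptors for cytokines and growth factors 30 were above background, with Tgfbr2 (12.57 ± 0.06) and the interferon receptor chain Ifnar2 (11.73 ± 0.09) leading, and Il2ra (6.25 ± 0.11) and Il18r1 (6.01 ± 0.04) were at the floor.

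Genes of both pathways of antigen presentation were bright. All 13 class I genes were above background, led by B2m (13.98 ± 0.05), the light chain of class I molecules. Of 12 class II genes 10 were, with the invariant chain Cd74 at 13.75 ± 0.04, H2-Aa at 13.47, 13.38 and 13.32, H2-Ea at 13.43, 13.30 and 13.30, and the class II activator Ciita at 9.28, 9.18 and 9.02. H2-Oa (6.41 ± 0.04) and H2-Ob (5.99 ± 0.12), which moderate peptide loading in B cells, were not above background. Of 18 costimulatory and checkpoint genes 13 were above background, beside 54.9% of all genes. Cd47 (12.55 ± 0.04) and Vsir (12.16 ± 0.08) were bright, Cd86 (7.66 ± 0.05) and Cd40 (7.29 ± 0.16) were close to the threshold, and Pdcd1 (6.14 ± 0.20) and Ctla4 (6.20 ± 0.07) were not above it. Of 15 complement genes 13 were above background, and the C1q chains C1qa, C1qb and C1qc read 12.95 ± 0.08, 12.81 ± 0.06 and 12.73 ± 0.07.

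Inflammatory cytokine genes had a low median. Of 22 measured 11 were above background, a share close to the 54.9% of all genes, and their median was 6.97. Mif (11.88 ± 0.11), Ebi3 (10.52 ± 0.05), Tgfb1 (9.70 ± 0.06) and the interleukin 1 receptor antagonist Il1rn (9.56 ± 0.04) were the brightest. The other probe sets of Mif, at 6.19 and 6.10, were not above background. Il1b read 8.25 ± 0.14 and Tnf 7.60, 7.62 and 7.43. Il6 (6.03, 6.17 and 6.09), Il12b (5.95, 6.13 and 6.25) and Il23a (5.97 ± 0.06) were at the floor.

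Of 27 chemokines 20 were above background, beside 54.9% of all genes. Ccl9 (12.77, 12.96 and 12.78), Ccl6 (12.33 ± 0.07) and Cxcl16 (11.31 ± 0.04) were the brightest, Ccl2, which attracts monocytes, read 10.37 ± 0.13, and Cxcl3 (6.12 ± 0.12) and Ccl22 (6.49 ± 0.03) were at the floor. Of 23 genes known as induced by LPS 17 were above background, beside 54.9% of all genes, from the inhibitor Nfkbia (12.50 ± 0.01) to Serpinb2 (7.00 ± 0.17). Nos2 (6.43 ± 0.10), which makes nitric oxide, and Ptgs2 (6.73 ± 0.08), which makes prostaglandins, were not above background.

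Of 23 genes linked to alternative activation 14 were above background, a share near the 54.9% of all genes. Mrc1 (12.19, 11.97 and 12.05), the folate receptor Folr2 (11.31, 11.46 and 11.38) and the lectin Clec10a (10.81, 10.80 and 10.91) were bright, whereas Arg1 (6.10 ± 0.06), Retnla (6.40 ± 0.09) and Chil3 (6.33, 6.90 and 6.14), which interleukin 4 induces in macrophages, were not above background.

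Lists of genes that distinguish tissue macrophages were short, with 7 to 11 members each, and 54.9% of all genes were above background. Of 11 alveolar macrophage genes 3 were above background (Csf2rb, Itgax and Pparg), and Siglecf read 6.38 ± 0.10. Of 10 peritoneal genes 3 were (Lyz1, whose level cannot be separated from Lyz2, Cd93 at 12.41 ± 0.07 and Tgfb2), and the peritoneal regulator Gata6 read 6.52 ± 0.13. Kupffer cell genes were above background in 6 of 11, red pulp genes in 5 of 7 and microglia genes in 8 of 11. In the last list Trem2 (on its _s_at set alone), Fcrls (11.13 ± 0.14) and Olfml3 (9.93 ± 0.13) were bright. P2ry12 read 8.15 ± 0.14, Tmem119 7.09 ± 0.01, and the microglial regulator Sall1 6.36 ± 0.07. Monocyte genes were above background in 12 of 15, led by S100a4 and S100a6 (13.03 ± 0.06). Osteoclast-lineage genes were above background in 9 of 13, with Atp6v0d2 at 10.83 ± 0.09, while Calcr (5.85 ± 0.07) was at the floor.

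**Figure D3:**
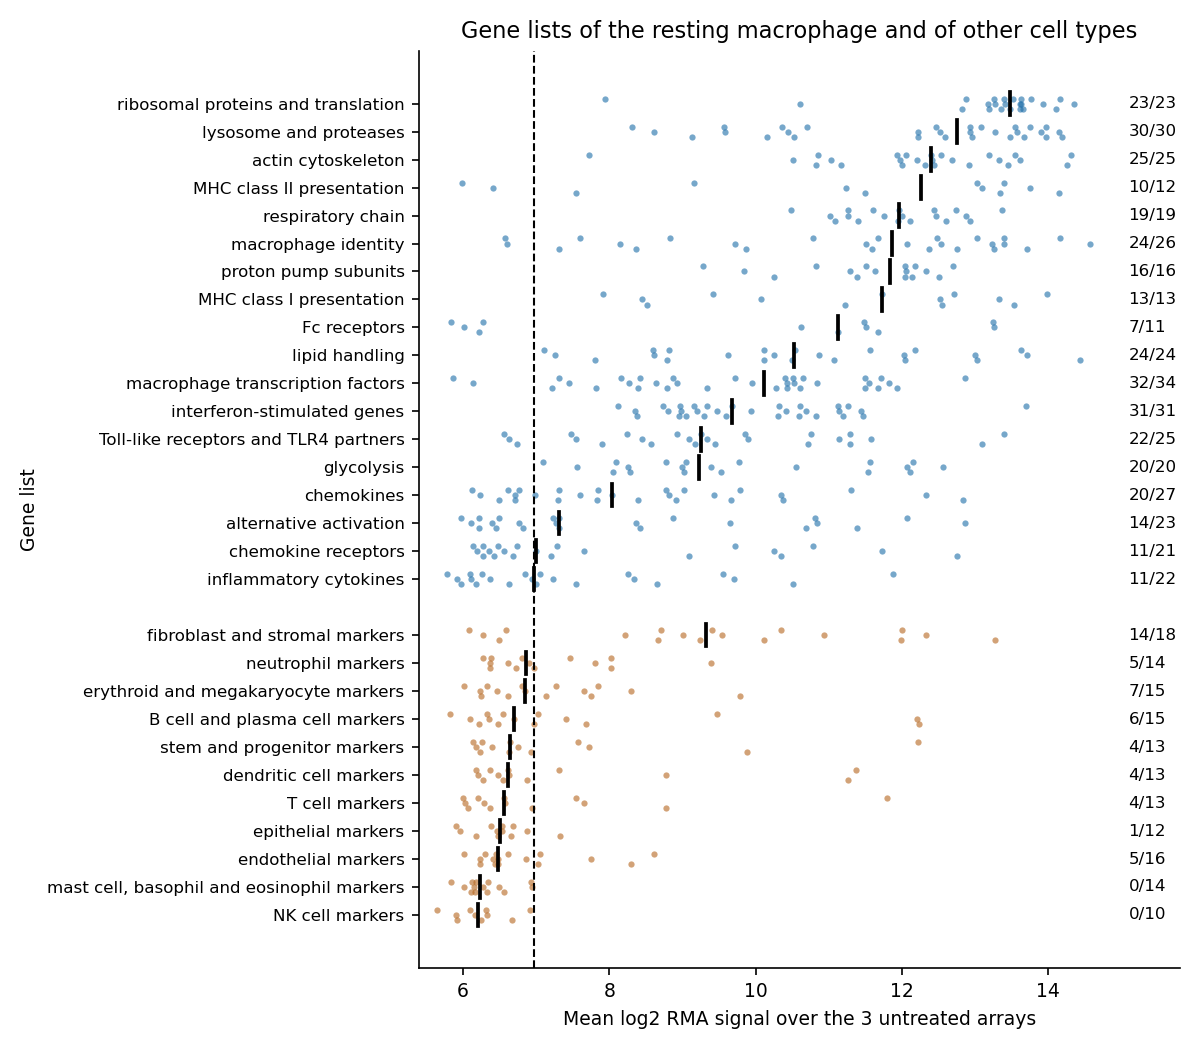
Mean log2 RMA signal over the 3 untreated arrays of each measured gene (points) in 18 lists of macrophage functions (blue) and 11 lists of markers of other cell types (brown), with the list median (black bar), the background threshold (dashed line) and, at the right, the number above background of the number measured. Ribosomal, lysosomal and cytoskeletal genes have the highest medians, and of the other cell types only the fibroblast and stromal list has its median, 9.33, above the threshold.

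Markers of other cell types were above background in 49 of 148 (33.1%), against 54.9% of all genes. None of 10 NK cell genes and none of 14 mast cell, basophil and eosinophil genes was above background in the mean. Of the latter list 1 was without replicate 1, 1 without replicate 2 and 1 with the mean over probe sets. At the 90th percentile of the silent genes 1 NK cell gene and 2 of the latter list were above background. With a threshold from receptor and keratin-associated families alone, 2 of each list were. Of 16 endothelial genes 5 were above the threshold of 6.97, among them Eng (8.61 ± 0.06) and Vwf (8.29 ± 0.12), while Cdh5 (6.43 ± 0.13), Pecam1 (6.45 ± 0.10) and Tek (6.01 ± 0.08) were at the floor. Of 12 epithelial genes only Epcam (7.32 ± 0.13) passed, on a probe set of the _x_at kind, while its other set read 6.36. None of the 12 passed without the _x_at and _s_at sets, with the mean over probe sets or at the 99th percentile of the silent genes. At the 90th percentile 2 of the 12 passed, and with the family threshold 4. Of 13 dendritic cell genes 4 passed the threshold of 6.97, Tcf4, Bst2, Itgax and Batf3, with Flt3 and Zbtb46 (6.62 ± 0.18) under it. Of 13 stem and progenitor genes 4 did, led by Cd48 (12.22 ± 0.02), with Cd34 (6.24 ± 0.08) and Kit at the floor.

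Single genes of the lymphoid lists were bright while their defining partners were not. Cd28, the costimulatory receptor of T cells, read 11.70, 11.77 and 11.91, and its other probe set read 11.12 ± 0.05. Cd3e (6.94 ± 0.05), Cd3d (6.57 ± 0.15), Cd3g (6.20 ± 0.21) and Cd8a (6.57 ± 0.14) were not above background. Of 13 T cell genes 4 were, beside 54.9% of all genes. Those besides Cd28 were Zap70 (8.78 ± 0.05), Cd4 (7.65 ± 0.27) and Lat (7.54 ± 0.14). Ighm, the heavy chain of IgM, read 12.15, 12.12 and 12.35 on the brightest of 11 probe sets, a set of the _s_at kind. The next Ighm set read 10.25, another 7.25 and the other 8 were not above background. Cd79a (6.33 ± 0.04), Ms4a1 (6.22 ± 0.03) and Pax5 (6.70 ± 0.10) were under the threshold. Above it were 6 of 15 B and plasma cell genes, beside the same 54.9%. The brightest was Xbp1 (12.24 ± 0.05), which is not confined to plasma cells. Of 15 erythroid and megakaryocyte genes 7 were above background, a share near the 54.9% of all genes. They were led by the platelet chemokine Pf4 (9.78 ± 0.15), and the haemoglobin gene Hba-a1 (6.01 ± 0.05) was at the floor.

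Fibroblast and stromal genes formed the exception among the other cell types. Of 18 measured 14 were above background, beside 54.9% of all genes. The collagen chain Col1a2 read 13.25, 13.22 and 13.37 and ranked 81st of all genes, with its next probe set at 11.45 ± 0.18 and another at 6.15. Smooth muscle actin Acta2 read 12.40, 12.06 and 12.53 on a set of the _s_at kind, and its other sets, at 6.33 and 6.19, were at the floor. The matrix protein Sparc read 11.92, 11.89 and 12.21, with a second set at 11.77 ± 0.20. Col3a1 read 11.92, 11.78 and 12.28, and Tagln, a protein of contractile cells, 11.01, 10.61 and 11.20. Col1a1 (9.54 ± 0.17), Dcn (9.24 ± 0.10), Pdgfra (8.67 ± 0.10) and Postn (8.22 ± 0.25) followed. Lum (6.49 ± 0.13), Thy1 (6.28 ± 0.02), the marrow stromal receptor Lepr (6.59 ± 0.06) and the adipocyte hormone Adipoq (6.08 ± 0.07) were not above background. In a bulk sample of this kind, fewer cells of a type and less RNA per cell cannot be told apart, and whether the signal came from stromal cells in the cultures was not tested.

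Xist, the RNA of the inactive X chromosome, read 12.42, 12.24 and 12.41, and the Y-linked genes Kdm5d (6.22 ± 0.02), Uty (6.03 ± 0.07) and Eif2s3y (5.84 ± 0.10) were at the floor in all 3 arrays. Of the silent genes 10 were above the threshold, which the percentile fixes. The brightest was Mbp at 10.15 ± 0.05, a gene known for myelin that also encodes golli proteins in blood cells. Its 8 probe sets ranged from 6.20 to 10.15.

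The 3 arrays were close to each other. Pearson correlations across genes, which are not independent replicates, were 0.9966 to 0.9971 for the pairs of arrays. The median SD of a gene was 0.068 above background and 0.079 under it. Above background 38 genes ranged over more than 1.5-fold between arrays, and 40 had an SD over 0.3. Of these 40, replicate 1 stood below the others in 15 and above them in 2, replicate 2 below in 7 and above in 6, and replicate 3 below in 2 and above in 8. The spiked hybridisation controls rose in their designed order in each array, from 8.92 to 8.97 for BioB to 13.57 to 13.62 for Cre. Replicate 1 was the lowest array for BioB, BioC, BioD and Cre, by small margins. Of the other control sets, Thr read 7.75, 8.06 and 7.86, and Phe and Lys were likewise lowest in replicate 1 and highest in replicate 2. Dap was highest in replicate 1, and Trp was lowest in replicate 3. The 3′ minus 5′ difference of the actin control was 0.287 to 0.321. Whether these differences bear on the spread of genes between arrays was not tested.

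**Figure D4:**
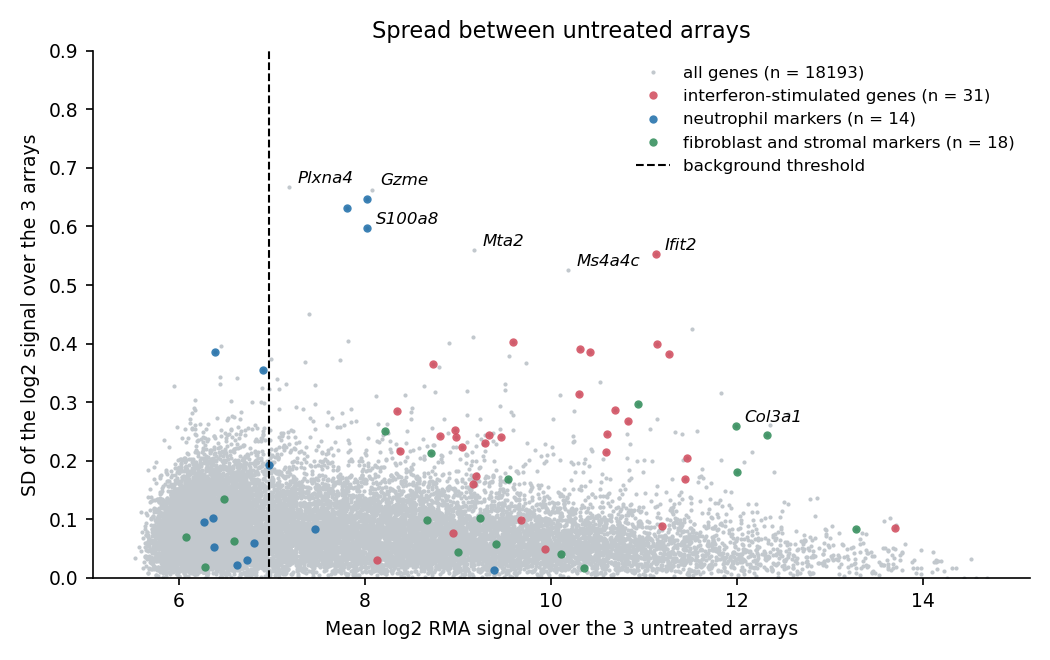
SD over the 3 untreated arrays against mean log2 RMA signal for 18193 genes (grey), with interferon-stimulated genes (red), neutrophil markers (blue) and fibroblast and stromal markers (green), and the background threshold as a dashed line. Above background, 248 genes have an SD over 0.2 and 40 over 0.3, among them 8 interferon-stimulated genes and 3 neutrophil markers.

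The largest spread belonged to Plxna4, a semaphorin receptor, which read 6.80, 6.81 and 7.96 on one probe set and 6.32 ± 0.09 on its other. The granzyme Gzme read 8.42, 7.31 and 8.50, on a set of the _x_at or _s_at kind alone. The chromatin protein Mta2 read 8.84, 8.87 and 9.82. Replicate 2 was thus low for Gzme, and replicate 3 was high for Plxna4 and Mta2. Several lists deviated by array. Of the 13 MHC class I genes replicate 1 was the lowest array for 11, beside 32.4% of all genes above background. Of the 10 MHC class II genes above background replicate 1 was the highest array for 7, beside 32.2%. The class II genes had median deviations of 0.08 in replicate 1 and -0.07 in replicate 3. Replicate 2 was the highest array for 12 of 16 proton pump genes, and replicate 1 the lowest for 22 of the 37 cell cycle genes above background, beside 37.4% and 32.4% of all genes above background. Interferon-stimulated, neutrophil and stromal genes are described in turn.

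Interferon-stimulated genes, which type I interferon induces, were all present and varied most as a list. All 31 were above background, beside 54.9% of all genes, with a median signal of 9.68 and a median SD of 0.241. Ifit2, which binds viral RNA, read 10.52, 11.59 and 11.28. The antiviral enzyme Rsad2 read 10.69, 11.45 and 11.27, and the membrane tether Bst2 10.84, 11.56 and 11.42. Replicate 1 was the lowest array for 30 of the 31 genes, beside 32.4% of all genes above background, and replicate 2 the highest for 25, beside 37.4%. The median deviation of the list from each gene's mean was -0.26 in replicate 1, 0.18 in replicate 2 and 0.08 in replicate 3. The exception to the first count was Irf9, part of the complex that carries the interferon signal to DNA, at 9.71, 9.77 and 9.57. The spread within the list was uneven, and the antiviral GTPase Mx2 (8.13 ± 0.03) and the RNA sensor Ddx58 (9.93 ± 0.05) differed little between arrays. The chemokine Cxcl10, also induced by interferon, read 8.51, 9.32 and 8.90.

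Promoter windows of the interferon-stimulated genes were searched for GAAANNGAAA, the core of the interferon-stimulated response element, on both strands. It was in 16 of 27 windows of these genes (59.3%), in 12 of 102 windows of the 100 brightest genes (11.8%) and in 1131 of all 32851 (3.44%). The 80 bases around the match nearest to the start are shown for 4 members with SDs between 0.38 and 0.40, with matches in capitals (TTTCNNTTTC where on the other strand).
Ifit1, plus strand of chr19:34640769-34640848: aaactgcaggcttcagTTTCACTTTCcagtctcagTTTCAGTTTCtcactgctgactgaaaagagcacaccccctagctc
Ifit3, plus strand of chr19:34583372-34583451: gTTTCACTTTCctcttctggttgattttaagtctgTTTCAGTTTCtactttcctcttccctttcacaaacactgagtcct
Bst2, minus strand of chr8:71537552-71537631: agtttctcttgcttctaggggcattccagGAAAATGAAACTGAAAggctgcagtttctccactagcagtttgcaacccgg
Rsad2, minus strand of chr12:26456528-26456607: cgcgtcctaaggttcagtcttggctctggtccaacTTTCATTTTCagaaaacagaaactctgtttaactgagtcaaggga
Ifit1 and Ifit3 held 2 separate matches in these stretches, Bst2 held 2 that overlap and Rsad2 held 1. Ifit1 read 9.88, 10.64 and 10.43 and Ifit3 10.00, 10.75 and 10.51, again lowest in replicate 1.

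Of the neutrophil markers, S100a9, S100a8 and Ngp were higher in replicate 2. S100a9 read 7.66, 8.76 and 7.63, and the granule protein Ngp 7.60, 8.52 and 7.31. S100a8 read 7.74, 8.71 and 7.63, on a set of the _s_at kind alone. Replicate 2 was the highest array for 8 of the 14 genes of the list, beside 37.4% of all genes above background, and not for Csf3r, Mpo, Prtn3, Ctsg, Cd177 and Cxcr2. Over the whole list of 14 genes 5 were above background, beside 54.9% of all genes. Those besides S100a9, S100a8 and Ngp were the receptor Csf3r and Mmp8 (7.46 ± 0.08). The granule enzymes Mpo (6.73 ± 0.03) and Elane (6.62 ± 0.02) and the receptor Cxcr2 were not above background. Camp, at 6.97 ± 0.19, was at the threshold and not above it. Summed over the 14 genes on the linear scale, the signal was 2337, 3046 and 2230 in replicates 1, 2 and 3. The part of neutrophils in the array differences was not tested.

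Most fibroblast and stromal genes were lowest in replicate 2 and highest in replicate 3. Replicate 2 was the lowest array for 11 of the 14 above background, beside 30.9% of all genes above background, and replicate 3 the highest for 9, beside 30.4%. Dcn (9.15, 9.35 and 9.22), Pdgfra (8.56, 8.75 and 8.70) and Cxcl12 were instead highest in replicate 2, and Pdgfrb and Col6a1 in replicate 1. Their median deviation was -0.02, -0.09 and 0.14 in replicates 1, 2 and 3, and the linear signal summed over all 18 genes of the list was 31299, 28927 and 35254. Other matrix genes among the most variable ran the same way, with fibronectin Fn1 at 10.49, 10.22 and 10.88, Col12a1 at 9.63, 9.14 and 9.88 and the growth factor-binding Ccn2 at 11.83 ± 0.32, lowest in replicate 2. The 24 identity genes above background had median deviations between -0.01 and 0.01. Those of the 23 genes of ribosomal proteins and translation lay between -0.02 and 0.01, and 19 of the 23 were among the 100 brightest genes.

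**Figure D5:**
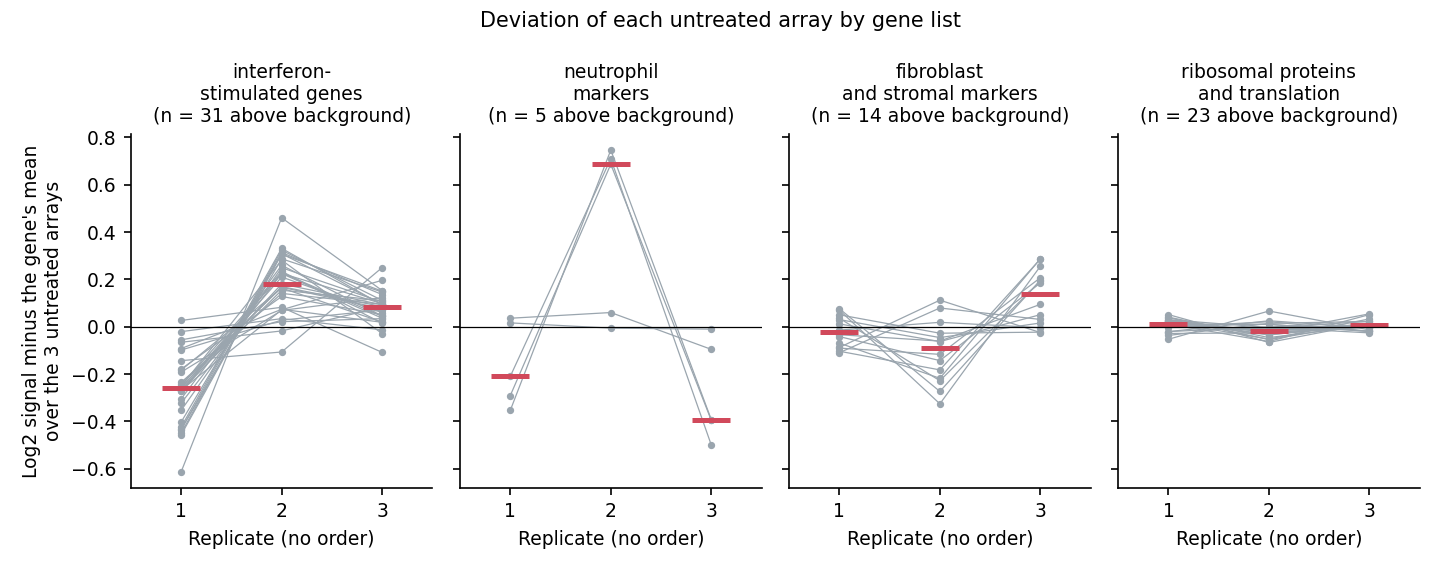
Log2 RMA signal minus the gene's mean over the 3 untreated arrays, for genes above background in 4 lists, with each gene's values joined by a line and the list median as a red bar; the replicates have no order. Interferon-stimulated genes lie lowest in replicate 1, 4 of the 5 neutrophil markers highest in replicate 2 and stromal markers by their median highest in replicate 3, and ribosomal genes, most of them among the 100 brightest, lie near 0.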

How the data were processed

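The authors hybridised biotin-labelled RNA (from 100 ng total RNA per array) of 9 macrophage samples, ran RMA on the arrays together with the Chipster software, and deposited a table with the log2 signal of every probe set in each array. Here the 3 columns of untreated cells were used. Of 45037 probe sets without the 64 controls, 34945 had 1 gene in the platform annotation, 932 had several and 9160 had none; only those with 1 gene were named, and genes read only by others were not analysed here. A gene took its probe set with the highest mean. The background threshold was the 95th percentile of 183 silent genes. No groups were compared and no test was run. The number of arrays limits the precision.

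The lists and genes were chosen with earlier results of these data known. Named were the 4 markers, genes from the 30 brightest genes, list members (all, or the brightest and dimmest) and the 20 genes of largest SD; Fn1, Ccn2 and the genes shown with promoters were chosen after their values were seen. The steps were tested on simulated data in which expressed and silent genes lay well apart, so calls near the threshold were not tested. Tools were Python 3.11.15, pandas 2.3.3, numpy 2.4.6 and, for cyclic loess, limma 3.58.1 in R 4.3.3. Alternatives were other thresholds, other choices of probe set, cyclic loess, medians and leaving out each array.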

Additional observations from a re-analysis of the deposited data

How the results depend on the processing

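Counts of genes above background (9988) stayed within 1.5 times under all alternatives run, from 8624 with the 99th percentile to 11892 with a threshold from receptor and keratin-associated families alone, and macrophage identity kept 22 to 25 of 26. Markers of other cell types above background rose from 49 to 75 with that family threshold, and lay between 41 and 63 under the others. Of the 100 brightest genes, 61 remained with the mean over all probe sets of a gene. The median SD of 0.068 was 0.056 with that mean, and 0.0541 to 0.0578 when 1 array was left out, since 2 arrays then give it. Of 689 recomputed list counts, 28 moved by more than 1.5 times, 8 of them with the family threshold. For genes above background with another probe set at or under the threshold (3632 of 6419), the count lay between 3221 and 3751. No paired analysis was possible because no groups were compared. RMA compresses dim signals towards the floor, so genes there may still be transcribed.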
